A study of Mus musculus with 24 samples.

Results

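The subject here is the set of nuclear genes that encode subunits of respiratory complexes II to V, cytochrome c included, in cultured mouse muscle cells. Members were taken by symbol: every gene whose symbol begins with Uqcr, with Cox4 to Cox8 or with Atp5, and Sdha to Sdhd, Cyc1 and Cycs, leaving out pseudogenes. This gave 47 of the 22180 genes that had a cluster of their own on the array. Complex II had 4 members, complex III 8 with Cyc1, complex IV 16 and complex V 17. Cytochrome c (Cycs) and Cox7a2l, an assembly factor of respiratory supercomplexes whose symbol fits the rule, were counted apart. Clusters that carry several symbols were left out of the gene tests, and so Cox6c and Uqcr10 are not among the 47.

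Complex II passes electrons from succinate to ubiquinone. Complex III hands them on to cytochrome c, complex IV (cytochrome c oxidase) uses them to reduce oxygen, and complex V (ATP synthase) makes ATP from the proton gradient that complexes III and IV, with complex I, build up. Skeletal and heart muscle replace some general subunits of complex IV by muscle isoforms during maturation: Cox7a1 takes the place of Cox7a2, Cox6a2 that of Cox6a1 and, in rodents, Cox8b that of Cox8a.

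The cells were taken from quadriceps muscle of ICR mice, grown and differentiated in culture and hybridised 1 sample to an array. Undernourished cultures came from offspring of dams held to 50% of the food of matched controls from gestation day 12.5, and control cultures from offspring of dams fed freely; litters of both were set to 8 pups. Each kind was kept in standard medium (5.5 mM glucose, 2% fetal bovine serum) or overnight in limited medium (0.5 mM glucose, 1 mM glutamine, 0.5 mM carnitine, 1% serum), with 6 arrays in each of the 4 groups. Limited medium therefore differs from standard medium in serum as well as in substrates, and the parts of these changes cannot be told apart. The age and sex of the animals were not given in the labels. Every culture has a number in the labels, the same in both media, whose meaning (mouse, litter or dish) is not stated. The p-values therefore describe the spread among these samples only, some of it possibly technical. Values are log2 array signal as deposited. Probes differ in brightness, so a level is compared only with the same gene on other arrays.

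The cultures carried the markers of differentiated muscle. The mean of 15 myotube markers was 10.98 ± 0.29 in control standard, 11.19 ± 0.24 in control limited, 10.86 ± 0.28 in undernourished standard and 11.12 ± 0.23 in undernourished limited arrays (SD, n = 6), with array values from 10.49 to 11.48 overall. The mean of this list lay higher in limited medium in both diets, in the same direction as most respiratory genes below. Its genes did not all do so. Myh1, Myh3, Myh8 and Ryr1 had lower means in limited medium in control cultures, and Mylpf in undernourished cultures. Myh4 rose most, from 9.03 to 9.99 in control and from 9.27 to 10.37 in undernourished cultures. Of the 15 genes, 1 (Ckm, muscle creatine kinase) was called higher. The part of this list in the results was not tested. The 7 markers of satellite cells and myoblasts averaged between 9.55 and 9.64 in the groups, and 1 of them, Vcam1, was called, with a lower mean in limited medium. Pax7, Cdh15 and Itga7 also had lower means in limited medium in both diets. Myf5 and Des had higher means there in both diets, and Myod1 differed in direction between diets. None of these others was called over both diets. No marker of fibroblasts (7 of 8 listed genes measured, group means from 5.92 to 6.36), glial cells (4 of 6, 6.25 to 6.38), endothelial cells (5 of 5, 5.04 to 5.14), leukocytes (5 of 5, 4.89 to 4.94), smooth muscle (5 of 5, 7.27 to 7.37) or adipocytes (5 of 5, 4.59 to 4.69) was called between media. Single genes of these lists ran well above the list means. The smooth muscle gene Acta2 never fell below 12.85 and reached 13.66, and the glial gene Erbb3 had values of 9.73 to 10.39. The fibroblast gene Col1a1 reached 11.76, and Pdgfrb of the smooth muscle list 9.54. Rgs5, S100b and Lum, of the smooth muscle, glial and fibroblast lists, did not exceed 4.42, 5.17 and 4.51. The leukocyte gene Cd68 reached 7.38 and the adipocyte gene Cidec 6.19. Ptprc and Adipoq, defining genes of the leukocyte and adipocyte lists, did not exceed 4.08 and 4.22. Control culture 16 and undernourished culture 20 stood apart: the fibroblast list averaged 7.79 and 7.67 on their arrays against 5.50 to 6.47 in the other 10 cultures. The glial list averaged 8.18 in culture 20 against 5.90 to 6.83 elsewhere, and its gene Cdh19 9.90 against 3.44 to 6.21. Without cultures 16 and 20, 5 respiratory genes passed the medium test below in place of 7, Sdhb and Uqcrc1 being lost. Calls over all 22180 genes were 1655 without these cultures and 1517 with every culture kept. In bulk RNA, fewer cells of a type and less RNA per cell cannot be told apart.

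Transcripts of some respiratory subunits were modestly higher in limited than in standard medium. Over both diets, 7 of the 47 genes passed the threshold, an adjusted p under 0.05 in limma with Benjamini-Hochberg adjustment over all 22180 genes, and all 7 were higher in limited medium. Over all genes tested, 6.84% were called in either direction and 3.56% were called higher. The 7 were Cox7a1, Atp5e, Cyc1, Cox4i1, Uqcrc1, Uqcrq and Sdhb, so that complexes II, III, IV and V each had at least 1. The median difference, limited minus standard, of the 47 genes was 0.12 on the log2 scale against 0.01 for all genes, and single genes ran from -0.10 (Cox8c) to 0.74 (Cox7a1). The difference was above 0 in 40 of the 47 (85.1%, against 51.8% of all genes), and 20 reached an unadjusted p under 0.05, all of them higher (42.6%, against 20.3% of all genes in either direction).

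Respiratory subunit genes are bright on the array and short, and such genes were called higher more often than others. Among the 1259 genes with a mean signal in the upper quartile and a genomic span under 10 kb, 13.7% were called higher and 2.14% lower, the median difference was 0.12 and 74.2% were above 0. The 27 subunit genes in that class had 4 calls and a median of 0.18. With 4 of 27, the share of subunits called higher in that class was near its background. By signal in the upper quartile alone, 6 of 36 subunit genes were called, where 8.40% of that class were called higher. By span under 10 kb alone, these were 5 of 35 and 3.66%. The called genes Sdhb (span 17.9 kb), Uqcrc1 (13.0 kb) and Uqcrq (mean signal 7.33, upper quartile from 7.69) lie outside the joint class.

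**Figure D1:**
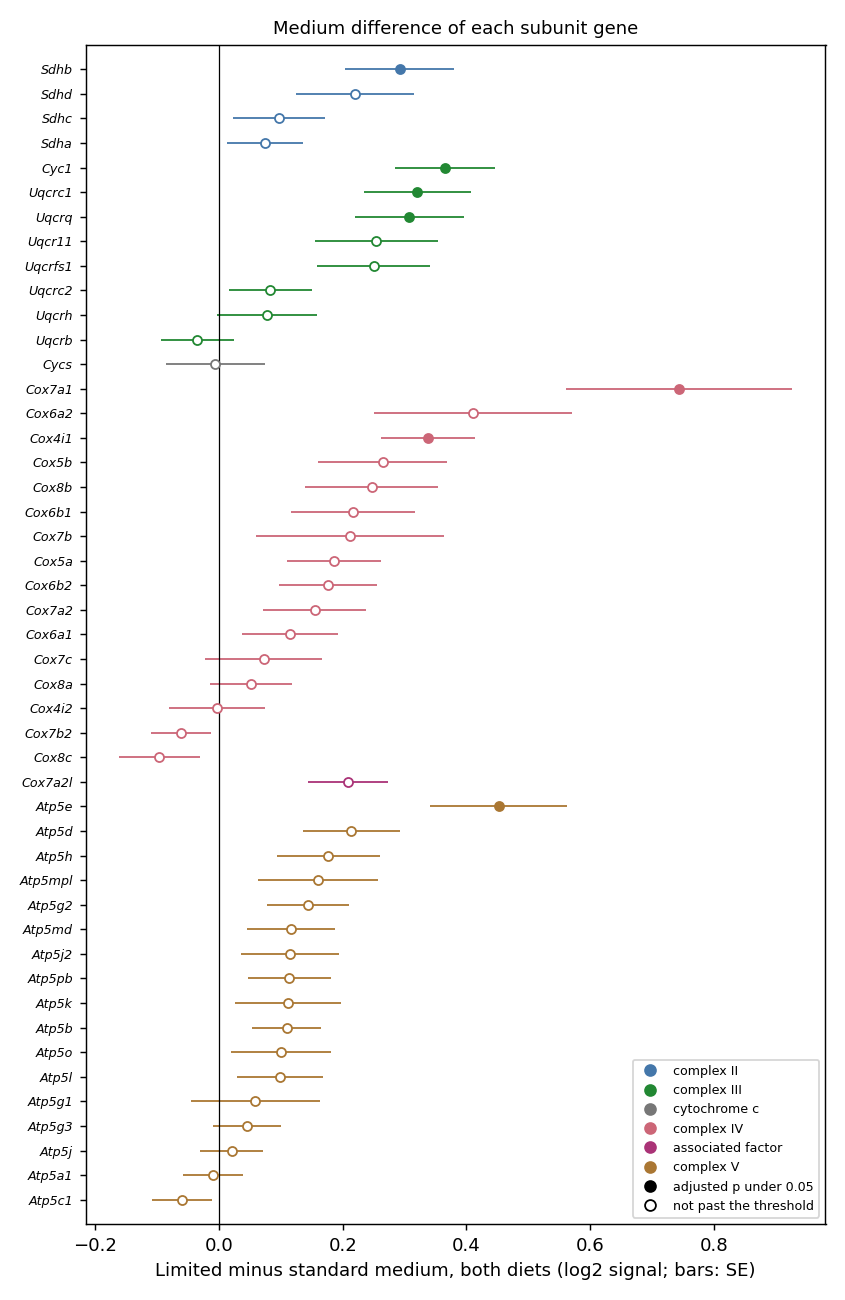
Limited minus standard difference over both diets of each of the 47 genes, in log2 signal on the horizontal axis, with bars of 1 SE, grouped and coloured by complex; filled points passed the threshold. The 7 filled points lie between 0.29 and 0.74, and 40 of 47 points lie above 0.

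In complex II, 1 of 4 genes was called higher, and the differences of all 4 were above 0. Sdhb, the iron-sulfur subunit that carries electrons from the flavin to ubiquinone, passed the threshold. In control cultures it ran from 9.25 to 9.72 (median 9.43) in standard and from 9.39 to 10.19 (median 9.87) in limited medium. The undernourished cultures ran from 9.20 to 9.83 (median 9.53) and from 9.42 to 9.88 (median 9.67). Limited arrays lay mostly above standard ones, with overlap in both diets. The difference was 0.29 ± 0.09 (SE, 1.22-fold; adjusted p = 0.0447 in limma), and it was above 0 in 11 of 12 culture numbers. Of the 4 genes, Sdha, the flavoprotein that oxidises succinate, had the lowest difference, 0.07 ± 0.06, and did not pass (adjusted p = 0.551). Sdhc and Sdhd, the membrane anchors, lay between them at 0.10 ± 0.08 and 0.22 ± 0.10, neither past the threshold. The call for Sdhb was lost without any 1 of 8 culture numbers (control 5, 10 and 11, undernourished 1, 4, 8, 12 and 20) and with quantile normalization (adjusted p = 0.0632), while the difference stayed between 0.24 and 0.33.

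Complex III had the most calls for its size, 3 of 8, and the highest median difference of the 4 complexes, 0.25, with 7 of 8 genes above 0. These ranks between complexes were not tested. Cyc1, the cytochrome c1 subunit that gives electrons to cytochrome c, had the lowest p of all 47 genes. In control cultures it ran from 9.01 to 9.55 (median 9.28) in standard and from 9.29 to 9.98 (median 9.75) in limited medium. The undernourished cultures ran from 9.02 to 9.59 (median 9.40) and from 9.49 to 9.79 (median 9.61). The ranges of the 2 media overlapped in both diets. In control cultures 1 limited array, culture 15, fell below several standard arrays. In undernourished cultures the standard array of culture 9, at 9.59, lay above the limited arrays of cultures 1, 9 and 12. The difference was 0.37 ± 0.08 (1.29-fold; limma, adjusted p = 0.00671), above 0 in 11 of 12 culture numbers.

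Uqcrc1, a core subunit of the matrix side of complex III, was the next. In control cultures it ran from 10.84 to 11.42 (median 11.11) in standard and from 10.94 to 11.67 (median 11.44) in limited medium. The undernourished cultures ran from 10.73 to 11.48 (median 11.22) and from 11.39 to 11.54 (median 11.50). The undernourished limited arrays lay close together, while 1 control limited array (culture 15) lay well below the other 5. The difference was 0.32 ± 0.09 (adjusted p = 0.0226). Uqcrq, a small accessory subunit, ran from 6.97 to 7.54 (median 7.13) in control standard and from 7.29 to 7.76 (median 7.49) in control limited arrays. In the undernourished cultures Uqcrq ran from 6.76 to 7.54 (median 7.24) in standard and from 7.26 to 7.80 (median 7.40) in limited medium. The ranges of the media overlapped, and 9 of 12 culture numbers were higher in limited medium (0.31 ± 0.09, adjusted p = 0.0342). Uqcrb, another small subunit, had the lowest difference of the complex, -0.04 ± 0.06. The other 4 genes ran from 0.08 to 0.25 and none passed. The Uqcrc1 call was lost without control culture 5 (adjusted p = 0.0688) or undernourished culture 12 (0.0502), and the Uqcrq call without any 1 of 8 culture numbers (control 5, 10, 11, 15 and 24, undernourished 4, 12 and 20; 0.0513 to 0.107).

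Cytochrome c itself had no called change. Cycs, the carrier between complexes III and IV, ran from 11.52 to 11.90 (median 11.65) in control standard and from 11.57 to 12.15 (median 11.78) in control limited arrays. In the undernourished cultures it ran from 11.36 to 12.18 (median 11.84) and from 11.42 to 11.82 (median 11.73). The groups overlapped throughout, and the difference over both diets was -0.01 ± 0.08 (95% interval -0.17 to 0.16). Cycs has 5 clusters on the array, and the other 4 had differences between 0.01 and 0.07.

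Complex IV held the largest difference, in the muscle isoform Cox7a1. This gene encodes the form of subunit VIIa found in contractile muscle, which sits at the face where complex IV dimers and supercomplexes meet. In control cultures it ran from 8.34 to 9.50 (median 8.88) in standard and from 9.17 to 10.24 (median 9.57) in limited medium. The undernourished cultures ran from 8.18 to 9.97 (median 8.62) and from 8.84 to 10.01 (median 9.56). Most limited arrays exceeded most standard ones in both diets. The standard array of control culture 24, at 9.50, lay above the limited arrays of control cultures 15 and 16, and that of undernourished culture 9, at 9.97, lay above all but 1 of the undernourished limited arrays. The difference was 0.74 ± 0.18 (1.67-fold, 95% interval 0.37 to 1.12; limma, adjusted p = 0.0131). Single culture numbers ran from -0.59 in culture 9 to 1.69 in undernourished culture 12, and 11 of 12 were above 0. The arrays of cultures 9 and 12 did not match best with their own number, as described under the processing below.

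Cox4i1, the general form of subunit IV, through which ATP acts on the enzyme, was the other call in complex IV. In control cultures it ran from 10.03 to 10.43 (median 10.08) in standard and from 10.47 to 10.73 (median 10.62) in limited medium. The undernourished cultures ran from 9.79 to 10.56 (median 10.08) and from 10.11 to 10.55 (median 10.36). In control cultures every limited array lay above every standard array, and in undernourished cultures the ranges overlapped. Of the 47 genes, this was the only one with such a separation in control cultures, where 0.573% of all genes had it; 0 of 47 had it in undernourished cultures, where 0.469% of all genes had it. The difference over both diets was 0.34 ± 0.08 (1.26-fold; limma, adjusted p = 0.00782). The complex had 13 of 16 genes above 0 and a median of 0.18. The lowest was Cox8c, a form of subunit VIII best known from testis, at -0.10 ± 0.06, which lay between 3.74 and 4.31 on all arrays. Signals of Cox8c, Cox7b2, Cox7c, Cox6b2, Cox4i2 and the complex V gene Atp5j2 had means below 6.02, the median gene of the array. Cox5a, Cox5b, Cox6b1, Cox6b2, Cox7b, Cox7b2 and Cox7c, the 7 genes of the complex outside the isoform pairs that are not described here, ran from -0.06 to 0.26 and did not pass.

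Complex V had 1 call among 17 genes. Atp5e, the small epsilon subunit of the ATP synthase stalk, had the second highest difference of all 47 genes. In control cultures it ran from 7.49 to 8.43 (median 7.93) in standard and from 8.40 to 8.90 (median 8.64) in limited medium. The undernourished cultures ran from 7.50 to 8.35 (median 7.88) and from 7.78 to 8.42 (median 8.26). Control limited arrays lay nearly all above control standard arrays, while the undernourished ranges overlapped widely. The difference was 0.45 ± 0.11 (1.37-fold; limma, adjusted p = 0.0134), above 0 in 11 of 12 culture numbers. Another cluster for Atp5e had a difference of 0.14, so the size of the change depends on the probes read; with the mean of both clusters it was 0.30, still past the threshold. The lowest gene of the complex was Atp5c1, the gamma subunit of the rotating stalk, at -0.06 ± 0.05. Of the 17 genes, 15 were above 0, with a median of 0.11. Atp5b and Atp5a1, the large subunits of the catalytic head, had 0.11 ± 0.06 and -0.01 ± 0.05 and did not pass. The other 13 genes ran from 0.02 to 0.21 and none passed in the main fit.

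Cox7a2l, the supercomplex factor related to subunit VIIa, had a difference of 0.21 ± 0.06 and lay just outside the threshold (adjusted p = 0.0505 in limma). Probe sets of several members can be read differently. In 7 genes with more than 1 cluster the other cluster of Atp5d had 0.48 where the cluster used had 0.21, and that of Atp5h had -0.09 where the cluster used had 0.18. With the mean of its clusters Atp5d passed the threshold (limma, adjusted p = 0.0357), the only 1 of 19 alternatives in which it did. Many subunit genes also have near-identical processed copies elsewhere in the mouse genome, so the source of the signal is uncertain within such families.

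**Figure D2:**
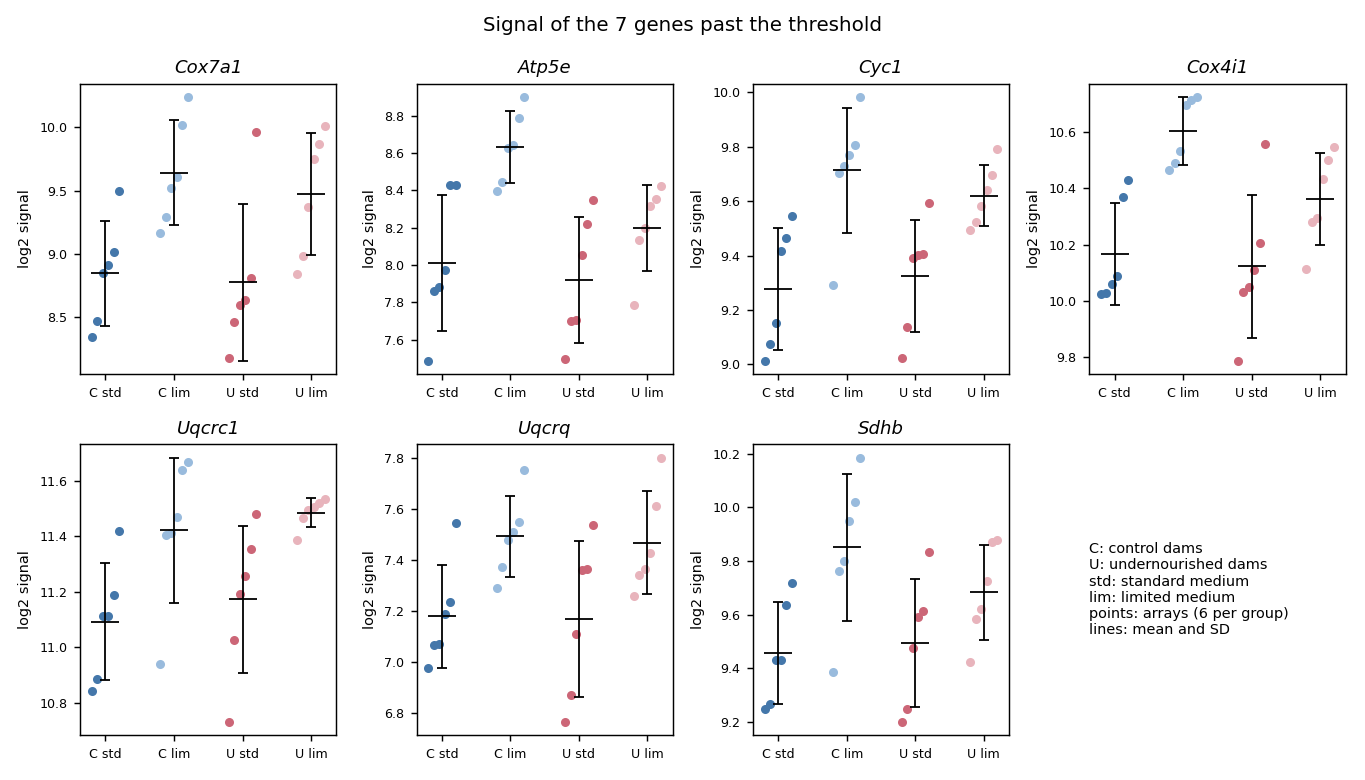
Log2 signal of the 7 genes past the threshold on each of the 24 arrays, by diet (C, control; U, undernourished) and medium (std, standard; lim, limited), with the mean and SD of each group of 6. Limited arrays lie higher on average in both diets, and the Cox7a1 array at 9.97 in undernourished standard stands above the other 5 of its group.

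The isoforms of a subunit allow a comparison within each array, since the difference of their log2 values removes whatever both share. Promoters from RefSeq (GRCm38.p6) are shown for the 2 subunits whose muscle and general forms both had one, because the forms are transcribed separately; each line holds the 250 bases before the annotated start, 5′ to 3′ on the coding strand, and Atp5e, the call of complex V, is added. Capitals mark a match to 1 of 4 motifs searched on both strands: CCGGAAG of ETS factors such as GABP, AAGGTCA of estrogen-related receptors, the NRF1 motif (GCGC, 2 unspecified bases, GCGC) and the myogenic E-box CAGCTG.
Cox7a1 (muscle form), chr7:30183921-30184170, plus strand: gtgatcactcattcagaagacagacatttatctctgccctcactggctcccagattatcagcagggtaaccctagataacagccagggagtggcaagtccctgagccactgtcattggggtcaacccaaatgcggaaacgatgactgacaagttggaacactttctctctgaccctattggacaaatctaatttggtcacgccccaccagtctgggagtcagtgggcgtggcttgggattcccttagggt
Cox7a2 (general form), chr9:79759854-79760103, minus strand: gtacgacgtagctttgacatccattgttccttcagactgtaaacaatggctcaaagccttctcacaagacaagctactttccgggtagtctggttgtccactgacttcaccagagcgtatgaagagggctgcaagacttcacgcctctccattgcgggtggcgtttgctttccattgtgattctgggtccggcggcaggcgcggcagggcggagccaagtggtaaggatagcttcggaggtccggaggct
Cox8b (muscle form), chr7:140900447-140900696, minus strand: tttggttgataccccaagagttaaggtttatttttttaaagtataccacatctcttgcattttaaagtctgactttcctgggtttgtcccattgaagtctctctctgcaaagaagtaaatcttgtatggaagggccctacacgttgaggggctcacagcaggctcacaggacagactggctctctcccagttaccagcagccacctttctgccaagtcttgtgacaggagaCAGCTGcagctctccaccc
Cox8a (general form), chr19:7217617-7217866, minus strand: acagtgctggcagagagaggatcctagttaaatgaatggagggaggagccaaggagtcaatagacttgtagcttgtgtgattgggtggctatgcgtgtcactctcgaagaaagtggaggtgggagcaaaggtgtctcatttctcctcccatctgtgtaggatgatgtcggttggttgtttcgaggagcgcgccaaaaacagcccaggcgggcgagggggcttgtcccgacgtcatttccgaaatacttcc
Atp5e, chr2:174464102-174464351, minus strand: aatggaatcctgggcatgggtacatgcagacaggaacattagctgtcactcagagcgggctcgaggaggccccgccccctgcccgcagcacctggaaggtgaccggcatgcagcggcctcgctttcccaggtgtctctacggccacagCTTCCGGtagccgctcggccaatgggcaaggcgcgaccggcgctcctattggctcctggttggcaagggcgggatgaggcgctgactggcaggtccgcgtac

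The promoters of the muscle forms held few CG pairs, 4 in Cox7a1 and 1 in Cox8b, where those of the general forms held 14 in Cox7a2 and 11 in Cox8a. GC content was 51.2% and 47.2% for the muscle forms against 54.8% and 52.8% for the general forms. Cox8b had an E-box 19 to 14 bases before the start, Atp5e had an ETS match 102 to 96 bases before it and 19 CG pairs, and no motif searched was in the windows of Cox7a1, Cox7a2 and Cox8a. Of the 47 genes, 36 had a promoter in the table. The ETS motif was in 9 of these (25.0%, against 7.83% of 27025 genes), the NRF1 motif in 7 (19.4%, against 5.64%), the receptor motif in 2 (5.56%, against 4.70%) and the E-box in 2 (5.56%, against 14.7%). Of the 7 called genes 4 had a promoter, and 1 of the 4, Atp5e, held a match. A match is a description of letters and not a site.

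The muscle form Cox7a1 rose relative to the general form Cox7a2. The log2 difference Cox7a1 minus Cox7a2 ran from -1.36 to -0.55 in control standard arrays (median -1.05) and from -0.72 to -0.12 in control limited arrays (median -0.53). Undernourished standard arrays ran from -1.49 to -0.26 (median -1.28) and undernourished limited arrays from -0.92 to -0.09 (median -0.47). The ranges overlapped in both diets, in undernourished cultures through the standard array of culture 9. The balance moved by 0.59 ± 0.14 (SE) toward Cox7a1 in limited medium, a ratio 1.50-fold higher, in 11 of 12 culture numbers (permutation test of the medium within diets, two-sided, 100000 resamples, p = 0.00059, adjusted over the 5 pairs 0.00295). The shift was 0.55 in control cultures (exact permutation test, adjusted p = 0.0379, 6 of 6 higher) and 0.63 in undernourished cultures (exact permutation test, adjusted p = 0.119, 5 of 6 higher). The shifts of the 2 diets differed by 0.08 (exact permutation test, p = 0.762). Cox7a2 alone had a medium difference of 0.15 ± 0.08 and did not pass.

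The other muscle forms moved less clearly. Cox6a2, the muscle form of subunit VIa, ran from 11.52 to 12.16 (median 11.90) in control standard and from 11.89 to 12.46 (median 12.14) in control limited arrays. Undernourished cultures ran from 10.52 to 12.54 (median 12.01) in standard and from 11.93 to 12.74 (median 12.47) in limited medium. Ranges overlapped, yet the limited array exceeded the standard array of its number in 12 of 12. Its difference of 0.41 ± 0.16 did not pass over all genes in the main fit, which did not use the culture number (limma, adjusted p = 0.132). Cox6a2 was called when the fit took account of that number, as described under the processing below. The balance Cox6a2 minus Cox6a1 moved by 0.30 ± 0.15 (permutation test, adjusted p = 0.0895, 10 of 12 culture numbers), with the general form Cox6a1 at 0.11 ± 0.08.

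Cox8b, the muscle form of subunit VIII, had a medium difference of 0.25 ± 0.11 that did not pass (adjusted p = 0.185), and Cox8a one of 0.05 ± 0.07. Cox8b ran from 9.83 to 10.31 (median 10.07) in control standard, from 9.98 to 10.80 (median 10.36) in control limited, from 9.52 to 10.53 (median 10.03) in undernourished standard and from 10.06 to 10.56 (median 10.18) in undernourished limited arrays. The groups overlapped in both diets. The balance Cox8b minus Cox8a moved by 0.20 ± 0.10 (permutation test, adjusted p = 0.0895, 8 of 12 culture numbers). Without undernourished culture 9 this shift was 0.25 and passed (adjusted p = 0.0354). All 3 muscle forms thus had balances above 0 over both diets, and 1 of the 3 passed in the main test, which did not use the culture number.

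Subunit IV has a pair of another kind. Cox4i2, a form of subunit IV known from lung and induced by low oxygen, lay between 5.60 and 6.33 on all arrays and had a difference between media of -0.003 ± 0.08, while Cox4i1 rose. The Cox4i2 signal lay below that of the median gene and no detection call was used, so whether its probes rose above background is not known, and the balance carries the Cox4i1 rise and no separate change of Cox4i2. The balance Cox4i2 minus Cox4i1 fell by 0.34 ± 0.12 (permutation test, adjusted p = 0.0256), with 5 of 12 culture numbers above 0. It fell by 0.47 in control cultures (exact permutation test, adjusted p = 0.0379) and by 0.22 in undernourished cultures (exact permutation test, adjusted p = 0.483). This call was lost without any 1 of 7 culture numbers, control 5, 10, 11 and 15 and undernourished 4, 8 and 12, where the adjusted p lay between 0.0502 and 0.103, and with quantile normalization of the values (0.0504). Atp5g3 and Atp5g1, which encode the same mature c subunit of the ATP synthase rotor, had a balance shift of -0.01 ± 0.12 (permutation test, p = 0.913), and their own differences were 0.05 ± 0.06 and 0.06 ± 0.10.

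**Figure D3:**
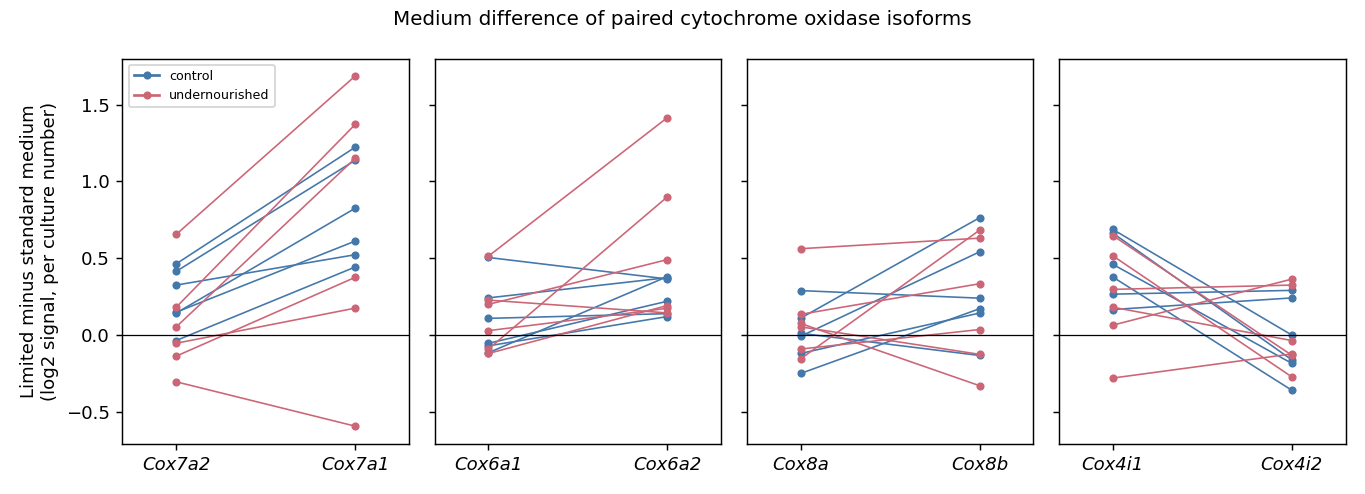
Limited minus standard difference (log2 signal, vertical axis) of both members of 4 complex IV isoform pairs, 1 line for each of the 12 culture numbers, blue for control and red for undernourished. Lines rise from Cox7a2 to Cox7a1 in 11 of 12 culture numbers, and the exception is undernourished culture 9.

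Culture numbers differed in how far the set moved. The median of the 47 genes, limited minus standard array of the same number, was above 0 in all 6 control cultures, from 0.01 (culture 16) to 0.40 (culture 11). In the undernourished cultures it ran from -0.19 to 0.30: culture 9 had 9 of 47 genes higher in limited medium and culture 1 had 21 with a median of -0.03, while cultures 4, 12 and 20 had 38 or 39. The medians of all genes stayed between -0.02 and 0.03 in every culture. Culture 9 was low in each of the 4 complexes, with medians from -0.21 in complex II to -0.11 in complex IV. Cultures 9 and 12, the lowest and highest undernourished medians, are those whose arrays did not match best with their own number. Whether their differences compare arrays of 1 source is not known. Without culture 9 the number of calls was 9 in place of 7, and without control culture 5 or undernourished culture 12 it was 4. Calls over all genes moved in the same direction. They were 1517 in the main fit, 1580 without culture 9, 991 without control culture 5 and 1022 without undernourished culture 12.

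**Figure D4:**
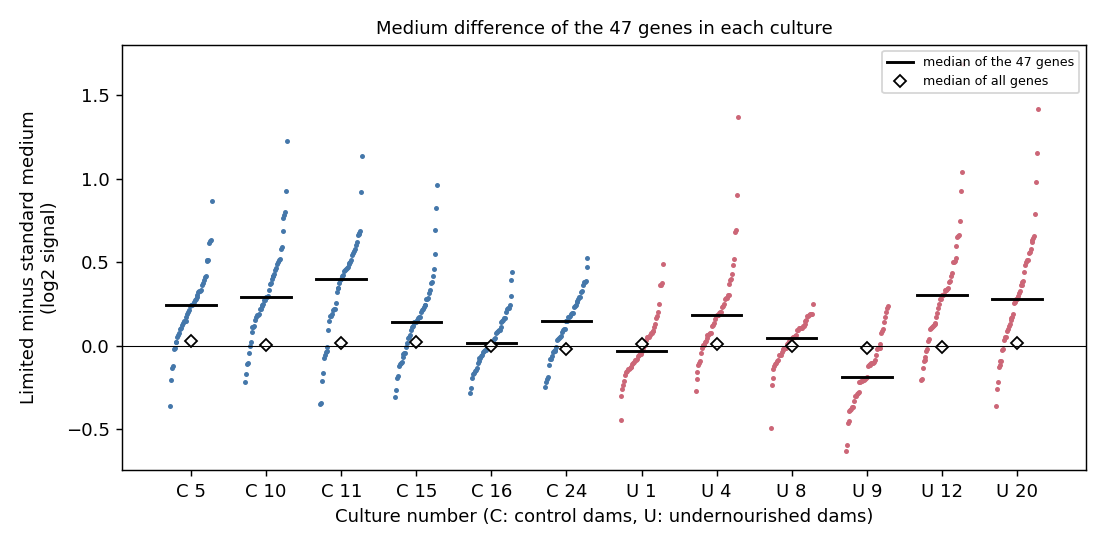
Limited minus standard difference of each of the 47 genes (log2 signal, vertical axis) in each of the 12 culture numbers, control (C) in blue and undernourished (U) in red; black lines are the medians of the 47 genes and diamonds those of all genes. The lines run from -0.19 in undernourished culture 9 to 0.40 in control culture 11, and the diamonds stay near 0.

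Within 1 diet, no subunit gene passed in the main fit, which did not use the culture number. In control cultures 0 of 47 were called by limma, where 0.343% of all genes were, although 15 of 47 reached an unadjusted p under 0.05, all higher (31.9%, against 13.1% of all genes in either direction). The 5 smallest p belonged to Cox4i1 (0.44 ± 0.11, adjusted p = 0.0656), Atp5e (0.62 ± 0.16, 0.0756), Cyc1 (0.44 ± 0.11, 0.0838), Sdhb (0.40 ± 0.12, 0.157) and Cox7a1 (0.79 ± 0.26, 0.168). Among the control cultures 42 of 47 differences were above 0, with a median of 0.20. With array weights, 3 of these (Atp5e, Cox4i1 and Cyc1) passed in control cultures, where 275 of 22180 genes passed against 76 in the main fit. In undernourished cultures 0 of 47 were called, where 1.46% of all genes were, and 6 reached an unadjusted p under 0.05, all higher (12.8%, against 13.4%). The smallest p there belonged to Cox7a1 (0.69 ± 0.26, adjusted p = 0.199), Cyc1 (0.30 ± 0.11, 0.218), Uqcrc1 (0.31 ± 0.12, 0.225), Cox6a2 (0.55 ± 0.23, 0.258) and Uqcrq (0.30 ± 0.13, 0.270). The median was 0.10 with 34 of 47 above 0.

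The difference of the medium effect between diets was tested directly and no gene passed it. By limma, 0 of 47 subunit genes and 0.0% of all genes were called, and at an unadjusted p under 0.05 the counts were 0 of 47 and 643 of 22180. The smallest p belonged to Atp5o (-0.28 ± 0.16), Atp5k (-0.29 ± 0.17), Cycs (-0.25 ± 0.16), Atp5e (-0.34 ± 0.22) and Uqcrh (-0.23 ± 0.16), each with an adjusted p of 1.00 and a smaller rise, or a fall, in undernourished cultures. These 5 encode the oligomycin-sensitivity subunit and the e subunit of ATP synthase, cytochrome c, the epsilon subunit and the hinge subunit of complex III. The median over the 47 was -0.09, against -0.01 for all genes, and 12 of 47 were above 0. For Cox7a1 the difference was -0.10, with a 95% interval from -0.85 to 0.65.

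**Figure D5:**
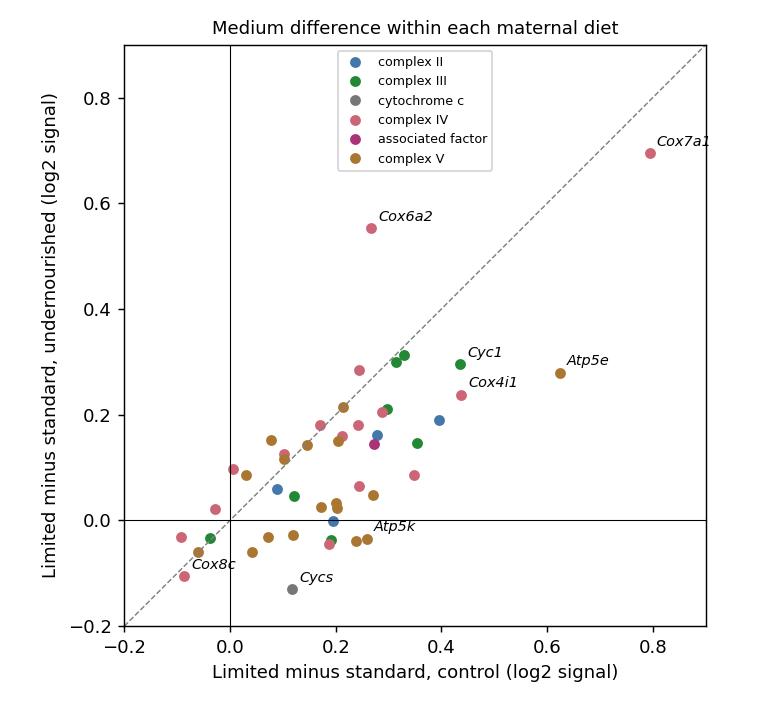
Limited minus standard difference (log2 signal) of each of the 47 genes in control cultures (horizontal axis) and undernourished cultures (vertical axis), coloured by complex, with the line of equal change dashed. Cox7a1 lies near the line at 0.79 and 0.69, Atp5e lies below it at 0.62 and 0.28, and no gene passed the test of the difference between diets.

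Maternal diet alone was not followed by a called change in any of the 47 genes. In standard medium limma called 0 of 47 genes and 0.0% of all genes; at an unadjusted p under 0.05 there were 0 of 47 and 697 of 22180. The smallest p in standard medium, undernourished minus control, belonged to Atp5a1 (0.12 ± 0.07), Sdha (0.14 ± 0.09), Cycs (0.15 ± 0.11), Atp5pb (0.12 ± 0.10) and Atp5mpl (0.12 ± 0.14), all with an adjusted p of 1.00. Atp5a1 and Sdha are the large soluble subunits of complexes V and II, and Atp5pb is part of the peripheral stalk. The median of the 47 was 0.00 with 25 above 0. For Cox7a1 the difference was -0.07, with a 95% interval from -0.60 to 0.46.

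In limited medium no subunit gene was called between diets. As before, limma called 0 of 47 and 0.0% of all genes, with 4 of 47 (8.51%, all lower) and 1206 of 22180 (5.44%) at an unadjusted p under 0.05. Atp5e differed by -0.43 ± 0.16, Atp5k by -0.31 ± 0.12, Atp5o by -0.26 ± 0.11, Cox4i1 by -0.24 ± 0.11 and Atp5l by -0.20 ± 0.10, each with an adjusted p of 0.894. All but Cox4i1 belong to ATP synthase. For Atp5e the undernourished limited arrays ran from 7.78 to 8.42 (median 8.26) against from 8.40 to 8.90 (median 8.64) in the control limited group, with little overlap. The median of the 47 was -0.08 with 15 above 0, against 0.00 and 50.9% above 0 for all genes. With both arrays of a culture number averaged, 0 of 47 and 0.0% of all genes were called between diets by limma, and 1 of 47 (Atp5e, -0.26 ± 0.12) and 791 of 22180 had an unadjusted p under 0.05. The other 4 with the smallest p were Sdha (0.13 ± 0.07), Atp5k (-0.17 ± 0.09), Cox4i1 (-0.14 ± 0.07) and Cox7a2l (-0.11 ± 0.06). None of the 5 isoform balances shifted with diet past the threshold (exact permutation tests, adjusted p from 0.440 to 0.957 within a medium). For Cox7a1 minus Cox7a2 the diet difference was -0.10 ± 0.20 in standard and -0.02 ± 0.20 in limited medium.

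The rest of the pathway was read from lists chosen by function. Complex I, which feeds electrons from NADH into the chain, had 6 of 34 subunit genes called higher over both diets and none lower, with a median of 0.19 and 31 of 34 above 0. Among its 17 genes that are bright and short by the limits above, 4 were called higher and the median was 0.21, where that class as a whole had 13.7% and 0.12. Its 4 smallest p belonged to Ndufb11 (0.63 ± 0.14, adjusted p = 0.00767 in limma), Ndufa2 (0.33 ± 0.08, 0.0137), Ndufa11 (0.39 ± 0.10, 0.0209) and Ndufs7 (0.31 ± 0.09, 0.0321). Ndufs7 is an iron-sulfur subunit close to the ubiquinone site and the other 3 are accessory subunits. Mean Ndufb11 signal went from 5.65 ± 0.42 to 6.49 ± 0.32 in control cultures and from 5.99 ± 0.38 to 6.41 ± 0.38 in undernourished ones (SD, n = 6).

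Among the genes that assemble the complexes 1 was called, where 6.84% of all genes were called in either direction. These lists are too short to be set apart from that share. None of 4 assembly factors of complex II, 6 of complex III and 4 of complex V was called, with medians of 0.07, 0.08 and 0.04. Of 22 measured factors of complex IV, 0 were called higher and 1 lower: Cox16, which helps to mature the catalytic core, fell by 0.41 ± 0.10 (limma, adjusted p = 0.0102), from 7.79 ± 0.35 to 7.39 ± 0.08 in control and from 7.80 ± 0.22 to 7.39 ± 0.25 in undernourished cultures. Among the 3 genes that import cytochrome c and other proteins of the intermembrane space or attach the heme, Gfer, the sulfhydryl oxidase of that import route, rose by 0.31 ± 0.09 (adjusted p = 0.0361). The 6 carriers and channels that exchange ATP, ADP and phosphate had no call and a median of 0.05.

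Of 13 regulators of mitochondrial genes, 1 was called higher and 1 lower, where 6.84% of all genes were called in either direction. This list too is too short to be set apart from that share. Esrra, the estrogen-related receptor that acts on many respiratory genes, rose by 0.25 ± 0.06 (limma, adjusted p = 0.0121). Its mean went from 7.74 ± 0.11 to 8.11 ± 0.14 in control cultures and from 7.93 ± 0.19 to 8.06 ± 0.09 in undernourished cultures. Ppargc1b, a coactivator of the same receptor, fell by 0.53 ± 0.08 (adjusted p = 0.000455), from 8.21 ± 0.25 to 7.76 ± 0.10 in control and from 8.15 ± 0.12 to 7.54 ± 0.29 in undernourished cultures. The median of the 13 was 0.09 with 10 above 0, and the other 11 did not pass.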

How the data were processed

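RNA from 24 samples, which carry 12 culture numbers, was measured on single-colour arrays of 41345 transcript clusters. Per the submitters' processing notes, the deposited values were made with RMA in Affymetrix Expression Console, with versions and annotation build not given in the sources used here. They were taken as log2 signal because the deposited numbers span 1.69 to 14.13 and the median of an array lies between 5.60 and 5.81; the base of the logarithm is not stated. Precision is limited by how many arrays each group has. No detection calls were used and no 2 arrays were identical.

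Cluster names came from the platform's annotation and were brought up to date by Entrez identifier with RefSeq (GRCm38.p6): 23521 had 1 symbol (23328 found in RefSeq), 1814 several and 16010 none here. The cluster with the highest mean stood for each of 1082 genes with several.

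limma 3.58.1 in R 4.3.3 (lmFit, eBayes) was fitted on all 22180 genes and 24 arrays in 4 groups with 1 shared spread, two-sided, with Benjamini-Hochberg adjustment over all genes and a threshold of 0.05. The diet effect over both media used the mean of both arrays of a culture number. Isoform balances were tested by permutation, 100000 resamples within diets (smallest p 1e-05) or exactly (smallest p 0.00216), adjusted over the 5 pairs. No low-signal filter was used. Scripts were tested on simulated data.

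Members, lists and tests were chosen with earlier results of these data known. Named are the members of isoform pairs, called members, the highest and lowest of each complex, the 5 smallest p where fewer than 5 were called, and up to 4 called genes of each other list; Atp5a1, Atp5b, Cox7a2l, Sdhc and Sdhd were added by role after their values were seen. Alternatives were low-signal filtering, array scaling, array weights, cluster means, leaving out cultures and a block for culture number.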

Additional observations from a re-analysis of the deposited data

Results flagged for a closer look

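Within groups of 6 arrays, 96 groups of values were screened for an array whose gap to its neighbour, over the group's range, exceeded Dixon's 95% critical value, which chance gives in about 1 in 20 groups, and 5 met this. In undernourished standard arrays, Cox7a1 was 9.97 in culture 9, against 8.18 to 8.81 in the other 5. The balance Cox7a1 minus Cox7a2 was -0.26 on that array, against -1.49 to -1.14. Cox8b was 10.56 in undernourished limited culture 4, against 10.06 to 10.23 in the others. Uqcrc1 was 10.94 in control limited culture 15, against 11.41 to 11.67. The balance Cox4i2 minus Cox4i1 was -3.78 in undernourished limited culture 1, against -4.80 to -4.42. No gene of the 47 moved up in every culture of a diet and down in every culture of the other.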

How the results depend on the processing

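Over 19 alternatives, Cyc1, Cox7a1, Cox4i1 and Atp5e stayed past the threshold for the medium over both diets in all 19, Uqcrc1 in 16, Uqcrq in 11 and Sdhb in 9. The number of subunit genes called, 7 as reported, ran from 4 to 9 when culture numbers were left out 1 at a time. It ran from 5 to 8 under the low-signal filter, scalings, array weights, cluster means and without cultures 16 and 20, the cultures highest in fibroblast markers. Calls over all genes tested, 1517 as reported, ran from 991 to 1603 and from 1421 to 2099 in the same order. In control cultures, 0 as reported became 2 when genes below the median level were dropped, 3 with array weights and 0 to 1 with a culture left out. Calls over all genes there were 76 as reported, 149 of 11090, 275 and 10 to 162 in the same order. Cox4i2 minus Cox4i1 moved to -0.30 (adjusted p = 0.0504, permutation) with quantile normalization and ran from -0.40 to -0.28 with a culture left out; Cox8b minus Cox8a ran from 0.12 to 0.25. Cox7a1 minus Cox7a2 ran from 0.53 to 0.68 over all its alternatives and stayed past the threshold. Cox8a was -0.01 under quantile normalization against 0.05. Diet effects and the difference between diets stayed at 0 called subunit genes under every alternative run.

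Arrays sharing a culture number had deviations from their group means that correlated between -0.05 and 0.56 over the 12 pairs. Of these pairs, 10 matched best with their own number. The exceptions were undernourished cultures 9 (correlation -0.05) and 12 (0.02). Most numbers thus went with shared deviations, but the criterion of over 0.1 in every pair was not met. The main medium tests therefore used no pairing. With a replicate block for culture number, 11 subunit genes, Cox6a2 among them, were called for the medium over both diets, 3 in control and 1 (Cox6a2) in undernourished cultures, and Cox6a2 minus Cox6a1, 0.30, passed (adjusted p = 0.0171, exact permutation of signs). Over all 22180 genes the block called 2597 for the medium over both diets, 551 in control and 1007 in undernourished cultures.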

Other observations

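Cox6c, a subunit of complex IV, and Uqcr10, a small subunit of complex III, have clusters shared with a predicted gene and were not tested. Of its 2 clusters, the brighter Cox6c cluster averaged 11.27 in control standard, 11.51 in control limited, 11.34 in undernourished standard and 11.40 in undernourished limited arrays. The dimmer one averaged 6.51, 6.63, 6.57 and 6.51 in the same order, and the Uqcr10 cluster 6.96, 7.27, 6.91 and 7.15. The dimmer Cox6c cluster was lower in limited medium in undernourished cultures, and the other values lay higher in limited medium. Uqcrb, tested above through a cluster of its own, also has a dimmer cluster shared with a predicted gene. That cluster averaged 5.55 in control standard, 5.85 in control limited, 5.88 in undernourished standard and 5.83 in undernourished limited arrays.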
